A study of Mus musculus with 2 samples.

Results

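Ear1, Ear2, Ear6 and Rnase2a, 4 of the 26124 genes in the matrices, were followed in mouse bone marrow cultures grown with GM-CSF and exposed to heme. The genes had been picked by name with their levels in these libraries already known, so every level and ratio below is a description. The UMIs (unique molecular identifiers, each marking 1 captured transcript) of each gene were summed by library and by hashtag day over barcodes carrying a single hashtag. The cells that carried each gene were then sorted by the share of their UMIs from S100a8 and by their UMIs of Vcan, Mrc1 and Arg1.

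The mice were C57BL/6 animals of 8 to 10 weeks. Their lineage-depleted marrow progenitors, freed of cells bearing markers of mature blood cells, were grown with 20 ng/ml GM-CSF, and on day 3 the cultures received either 300 µM heme bound to albumin (heme) or albumin alone (control). Each group was 1 library, a pool of 5 cultures with hashtags for days 0, 3, 4, 5 and 7, so no replicate exists and no test between heme and control was possible. Days 0 and 3 came before the exposure and serve as the background of each library. The treatment was added to a mixed culture, so fewer cells of a kind and less RNA per cell cannot be told apart in a culture's total.

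The 4 genes encode small secreted ribonucleases of the RNase A superfamily. The eosinophil-associated branch of this family expanded in rodents by repeated gene duplication, and its human relatives are eosinophil-derived neurotoxin and eosinophil cationic protein, which are stored in eosinophil granules. In the mouse the branch is known from eosinophils and also from neutrophils, monocytes and macrophages, and Rnase2a, also named Ear11, is known from macrophages of type 2 immune responses.

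The kept cells numbered 598 to 2715 in the control cultures and 1366 to 2481 in the heme cultures, with 6189203 to 34647365 UMIs per culture and a median of 7912 to 15078 UMIs per cell. A count of 3 UMIs, taken here as the floor, corresponded to 0.0866 to 0.485 CPM (counts per 1000000 UMIs). Every interval below is an exact 95% interval and reflects counting error alone. The study's upper limit of 5000 genes per cell removed 4.82% to 8.34% of the control singlets of days 3 to 7 but 16.4% to 33.9% of the heme singlets, and the ribosomal limit removed 59.9% of the control and 7.78% of the heme singlets of day 0. The median gene was 0.25 to 0.44 higher on the log2 scale in heme than in control on each of the 5 days, including the days before exposure. The libraries shared 112 barcodes, 33 of them among kept cells.

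The genes lie on chromosome 14 (GRCm38, GENCODE M21). Ear1 (ENSMUSG00000072601) spans positions 43818765 to 43875517 on the minus strand, where its longer transcript model runs over other members of the cluster, and Ear2 (ENSMUSG00000072596) spans 44102654 to 44103534 on the plus strand. Rnase2a (ENSMUSG00000047222) spans 51255262 to 51256112 on the minus strand and Ear6 (ENSMUSG00000062148) spans 51853699 to 51854643 on the plus strand. The annotation places 33 genes and pseudogenes named Ear, Rnase or Ang on this chromosome, 13 of them pseudogenes, so the degree to which reads of 1 copy can be told from those of another bears on every value.

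The coding sequences of Ear1 and Ear2 were identical at 445 of 465 aligned bases (95.7%), those of Ear2 and Ear6 at 88.2%, and that of Rnase2a at 77.2% to 80.2% with the other three. In the last 400 bases of the transcript, which 3′ counting samples, 96 of the 310 possible stretches of 91 bases in Ear1 also occurred in another of the 32 related genes or pseudogenes (31.0%), among them Ear2, Ear10 and 2 pseudogenes. For Ear2 the number was 3 of 310, and for Ear6 and Rnase2a it was 0. Within this region exact reads of Ear6 and Rnase2a, and most of those of Ear2, can thus be told from reads of these related genes. Part of the Ear1 reads cannot, and over the whole transcript 15.6% of the Ear2 stretches were shared. Reads with a mismatch were not searched, and how the counting treated shared reads was not tested.

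A stretch of 150 bases near the start of each gene is shown because the 4 genes, which did not move together, carry near copies of the same upstream sequence. Sequences are from the RefSeq promoter table (GRCm38.p6) and run 5′ to 3′ on the strand of the gene. Capitals mark bases that differ from, or have no counterpart in, Ear2 in a pairwise alignment of the 250 bases upstream of each RefSeq start. The stretch shown ends at that start for Ear1, Ear2 and Rnase2a. For Ear6 the RefSeq start, position 51853768, lies 69 bases inside the longest GENCODE model, so its stretch ends 56 bases earlier and 13 of its bases lie in the first exon of that model. The stretches are chr14:43819640-43819789 (minus) for Ear1, chr14:44102504-44102653 (plus) for Ear2, chr14:51853562-51853711 (plus) for Ear6 and chr14:51256113-51256262 (minus) for Rnase2a.
Ear1: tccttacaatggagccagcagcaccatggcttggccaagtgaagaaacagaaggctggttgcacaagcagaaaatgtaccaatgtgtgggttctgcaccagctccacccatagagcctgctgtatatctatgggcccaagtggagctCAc
Ear2: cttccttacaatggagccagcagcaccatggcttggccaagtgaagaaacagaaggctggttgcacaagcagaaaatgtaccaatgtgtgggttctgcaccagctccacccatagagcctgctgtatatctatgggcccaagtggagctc
Ear6: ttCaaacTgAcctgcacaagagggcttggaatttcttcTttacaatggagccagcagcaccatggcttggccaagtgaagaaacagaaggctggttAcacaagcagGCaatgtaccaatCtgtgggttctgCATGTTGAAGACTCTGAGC
Rnase2a: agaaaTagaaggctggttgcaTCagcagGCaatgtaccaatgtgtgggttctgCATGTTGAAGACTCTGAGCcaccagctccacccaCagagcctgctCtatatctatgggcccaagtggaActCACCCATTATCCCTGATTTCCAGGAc

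Over 250 upstream bases, Ear1 and Ear2 were identical at 246 of 248 aligned positions (99.2%), Ear2 and Ear6 at 93.0% and Ear2 and Rnase2a at 86.4%. The longest gap in the alignment of Ear2 and Ear6 was a block of 19 bases, CATGTTGAAGACTCTGAGC, absent from Ear2, that begins 75 bases upstream of the RefSeq start of Ear6 and 97 bases upstream of that of Rnase2a. Of 27025 promoters of the same length, only those of Ear6 and Rnase2a held it on the gene's strand. Motifs were searched in these 250 bases, which reach beyond the stretches shown. A CCAAT box (letters CCAAT, either strand) occurred 3 times each in the Ear1 and Ear2 windows and once each in those of Ear6 and Rnase2a, and in 34.5% of all promoters. A C/EBP-type motif (TTNNGNAA, either strand) occurred in all 4 windows and in 36.9% of promoters. A PU.1-type motif (GAGGAA) occurred once, in the Rnase2a window, where it overlaps a C/EBP-type match, and in 23.1% of promoters. It begins 193 bases upstream of the start, and it and both C/EBP-type matches of Rnase2a lie outside the stretch shown. The letters of a STAT5-type motif (TTCNNNGAA), an NRF2-type motif (TGACNNNGC), a GATA-type motif (AGATAA) and a TATA box (TATAAA) were in none of the 4 windows.

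Ear1, whose product is stored in eosinophil granules, was at or near the floor throughout, with 84 UMIs in 65 of 19625 cells. Its levels in the control cultures of days 0, 3, 4, 5 and 7 were 1.94, 0.31, 0.61, 0.19 and 0 CPM, and those in the heme cultures 0.45, 0.27, 0.36, 0.36 and 0.37 CPM. On day 7 the control culture had 0 UMIs in 2715 cells, and the heme culture 10 UMIs in 2012 cells. With 3 counts put in place of the control's 0, the heme level was 4.29-fold that of control, or 3.45-fold without the upper gene limit. Neither value is a lower bound, because the exact interval of the ratio of the counts themselves began at 2.88. Part of the Ear1 reads cannot be told from those of related genes, which holds for these 10 UMIs as well.

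The Ear1 UMIs were concentrated in few cells. The 39 cells with 10 or more UMIs of the eosinophil granule genes Prg2, Prg3 and Epx together made up 0.199% of the kept cells and held 28 of the 84 Ear1 UMIs (33.3%, 23.4% to 44.5%), in 10 cells with up to 7 UMIs each. Their Ear1 level was 139 CPM (92.6 to 201), against 0.23 CPM in all other cells. In the same 39 cells, 30 of which had Epx (eosinophil peroxidase), Ear2 was at 184 CPM and Ear6 at 224 CPM. Rnase2a had 0 UMIs in them, which allows up to 18.4 CPM. These cells held 0.369% of all Ear2 UMIs and 0.586% of all Ear6 UMIs, so the totals of those genes came from other cells.

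Ear2, also an eosinophil granule ribonuclease, was the most abundant of the 4 with 10025 UMIs. It was at 1.94 CPM on day 0 of the control library and at 48.0, 45.2, 22.2 and 46.4 CPM on days 3, 4, 5 and 7. In the heme library it was at 4.25 CPM on day 0 and at 54.5, 43.9, 55.6 and 41.0 CPM on the later days. Both series thus rose between days 0 and 3, and the control culture of day 5 was the low point of all cultures from day 3 on. In the order of levels the interval of each culture overlapped the next from control day 3 down to heme day 7, so neighbours among those 5 do not differ beyond counting error, and neither do heme days 5 and 3 above them.

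Ear6 had 7685 UMIs and a peak in the middle of the culture. Its control levels on days 0, 3, 4, 5 and 7 were 0.48, 12.3, 48.7, 64.3 and 5.57 CPM, and its heme levels 2.20, 23.4, 68.5, 50.5 and 19.7 CPM. The peak fell on day 5 in control and on day 4 in heme, with intervals that overlapped between these peaks. From day 5 to day 7 the control level fell 11.5-fold and the heme level 2.57-fold.

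Rnase2a had 1523 UMIs, 1299 of them in the control library. Its control levels on days 0, 3, 4, 5 and 7 were 0.48, 10.2, 2.07, 3.85 and 24.3 CPM. Its heme levels were 0.15 CPM on day 0, 6.09 CPM on day 3 and 0.26, 0.26 and 0.37 CPM on days 4, 5 and 7. Both libraries had the gene on day 3 and a lower level on day 4. The control cultures then rose 6.31-fold from day 5 to day 7 (5.13 to 7.85), and the 3 exposed heme cultures stayed within the range of the day 0 cultures.

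**Figure D1:**
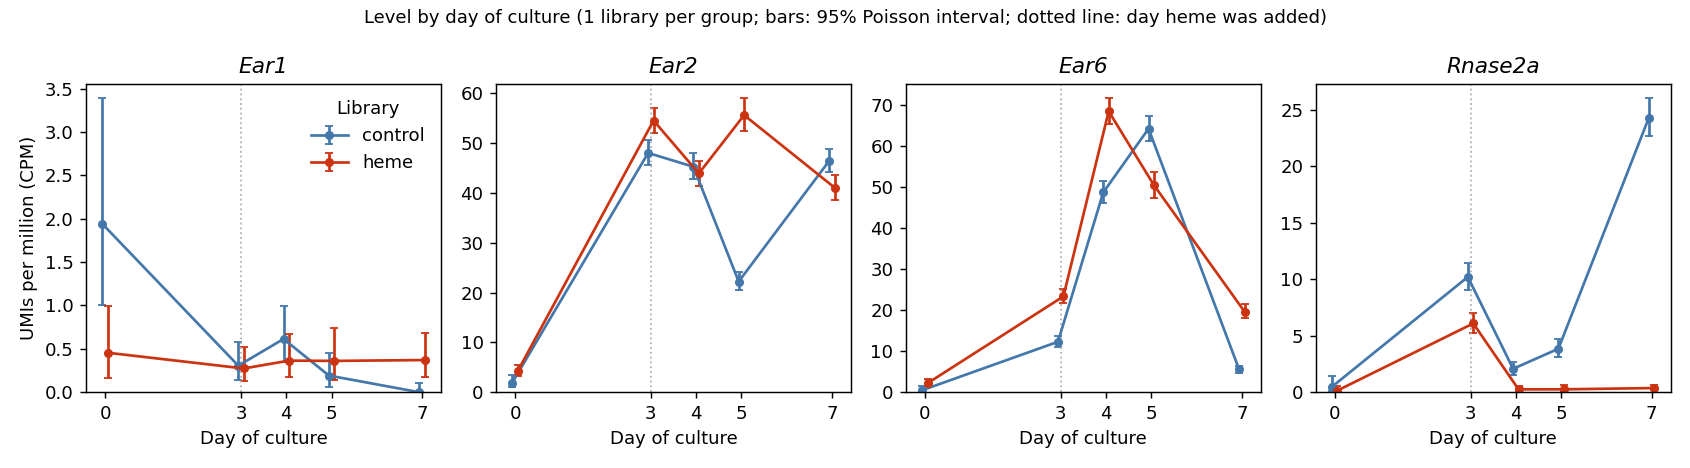
Level of each gene in CPM (y axis, a separate scale for each gene) against day of culture (x axis), with blue for the control and red for the heme library, points for summed counts and bars for 95% Poisson intervals; the dotted line is the day heme was added. Control and heme were at 22.2 and 55.6 CPM for Ear2 on day 5, 5.57 and 19.7 CPM for Ear6 on day 7 and 24.3 and 0.37 CPM for Rnase2a on day 7; the intervals were also apart on other days, including day 3, before heme was added, for Ear2, Ear6 and Rnase2a.

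The question of the design, what heme did in the exposed cultures, was addressed by the ratio of heme to control on the same day. Members entered this comparison when the 2 cultures of a day summed to at least 20 of their UMIs. On day 4, 0 of 4 were 2-fold or more higher in heme and 1 of 4 was 2-fold or more lower, against 9.64% and 2.98% of all genes. On day 5, 1 of 3 was higher and 1 lower, against 9.27% and 3.75% of all genes, and on day 7 again 1 of 3 was higher and 1 lower, against 14.9% and 7.67%. The gene that was lower was Rnase2a on each day. The gene that was higher was Ear2 on day 5 and Ear6 on day 7. Before exposure, Ear2 and Ear6 were 2-fold or more higher in heme on day 0 (2 of the 2 counted), when 20.7% of all genes were higher and 1.75% lower. The control side of these day 0 ratios was 12 UMIs of Ear2 and 3 UMIs of Ear6, the latter at the floor. Their intervals were 1.16 to 4.49 and 1.41 to 23.3. On day 3, 0 of 3 members were past 2-fold in either direction, when 7.95% of genes were higher and 0.539% lower.

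Rnase2a was lower in heme on day 3 already, at 0.597 of control (0.497 to 0.716). After heme was added the ratio on day 4 was 0.123, with an interval of 0.0472 to 0.271. It was 0.0670 on day 5, within 0.0213 to 0.162, and 0.0153 on day 7, within 0.0073 to 0.0282. The counts on day 7 were 842 UMIs in control and 10 in heme, a difference of 65.5-fold (35.4 to 137). Without the upper gene limit the day 7 ratio was 0.0345, and with each cell weighted equally the day 5 ratio was 0.185. Thinned to 3000 UMIs per cell, 5.31% of the control cells of day 7 had an Rnase2a UMI (4.47% to 6.26%) and 0.105% of the heme cells (0.0128% to 0.380%). For comparison, 177 control and 216 heme cells of day 0 with erythroid markers had Rnase2a at 0 and 0.27 CPM, with median depths of 19437 and 18618.5 UMIs. The exposed heme cultures, at 0.26 to 0.37 CPM, were close to these levels. In the same cells Ear1 was at 0 CPM in both libraries, Ear2 at 1.48 and 1.07 CPM and Ear6 at 0.30 and 0.53 CPM. Later cultures held 1 to 8 such cells each, with Ear2 at 0 to 81.4 CPM, Ear6 at 0 to 202 CPM and Rnase2a at 0 to 11.5 CPM, and those cells were not used as a background.

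Ear2 in heme was at 1.14 times control on day 3 (interval 1.06 to 1.22) and at 0.970 on day 4 (0.895 to 1.05). The ratio was 2.50 on day 5 (2.26 to 2.77) and 0.884 on day 7 (0.818 to 0.955). The day 5 ratio was under 2-fold without the upper gene limit (1.98), with all Singlet barcodes (1.99) and with each cell weighted equally (1.98). The day 5 difference came with a fall of the control culture, which was at 0.491 of its day 4 level, whereas the heme culture was at 1.27 times its own. Ear6 in heme was at 1.90 times control on day 3 (interval 1.67 to 2.16) and at 1.41 on day 4 (1.31 to 1.51). The ratio was 0.785 on day 5 (0.725 to 0.850) and 3.53 on day 7 (2.99 to 4.18). Its excess on day 4 was below that of day 3, before any heme, and was 1.04 without the upper gene limit. That setting also took the Ear6 ratio to 0.416 on day 5 and 2.18 on day 7, and weighting each cell equally took the day 7 ratio to 2.23.

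**Figure D2:**
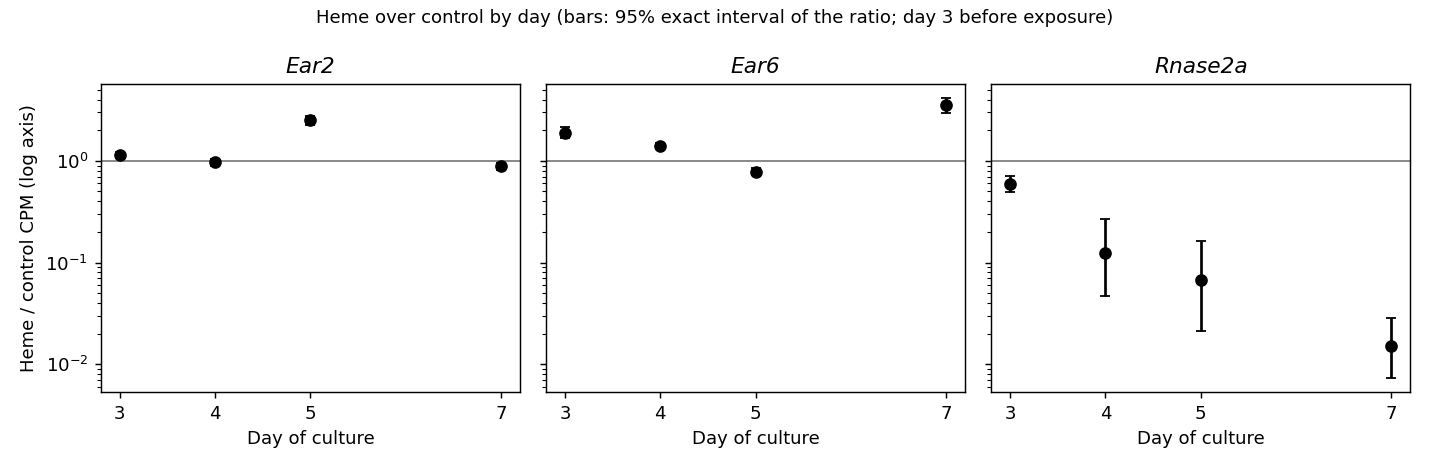
Heme over control ratio of CPM (y axis, log scale) for Ear2, Ear6 and Rnase2a by day of culture (x axis), with 95% exact intervals of the ratio; the line at 1 marks equal levels and day 3 precedes the exposure. Rnase2a falls from 0.597 on day 3 to 0.0153 on day 7, whereas Ear2 and Ear6 lie on both sides of 1.

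The cells that carried each gene were sorted into exclusive classes. S100a8 encodes a subunit of calprotectin, abundant in neutrophils, and cells with 1% or more of their UMIs from it were called S100a8-high. The other cells were sorted by 2 or more UMIs of Vcan (versican, high in monocytes), Mrc1 (the mannose receptor of macrophages) or Arg1 (arginase 1 of alternatively activated macrophages) into cells with 1 of the 3, with several, or with none. These classes are ranges and not cell types, and 1.00% to 5.72% of the cells of a culture had an S100a8 share of 0.5% to 2%, near the limit. The S100a8-high share of cells fell from 68.5% on day 4 to 5.05% on day 7 in control, and from 83.4% to 23.3% in heme. The upper gene limit removed 6.62% of control and 16.4% of heme singlets on day 4, and 4.82% and 26.1% on day 7. In heme on day 7 the median depth was 7451 UMIs in S100a8-high cells and 15461 in cells with Mrc1 only. Its effect on these and the later class shares of cells was not tested.

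On days 3 to 5 most Ear6 UMIs lay in S100a8-high cells. They held 95.3%, 97.2% and 91.2% of its UMIs in control on days 3, 4 and 5, and 96.5%, 98.9% and 96.6% in heme, and 80.4% in heme on day 7. On day 0 they held 0 of its 3 UMIs in control and 0 of 29 in heme. Its level in these cells was 23.4, 82.5, 167 and 42.5 CPM on days 3, 4, 5 and 7 of control, and 38.2, 89.6, 87.0 and 102 CPM in heme. In the classes defined by Vcan, Mrc1 or Arg1 it stayed at 7.51 CPM or less in every culture from day 3 on. With cells thinned to 3000 UMIs and sorted again by 1 or more UMIs of a marker, Ear6 was higher in control on day 5. It was at 39.2 CPM in cells with Mrc1 only (10 UMIs in 85 cells) and 12.9 CPM with Vcan only (5 UMIs). The 3 cells with Arg1 only were at 222 CPM (2 UMIs). Within S100a8-high cells the heme over control ratio was 1.63 on day 3, before exposure (interval 1.43 to 1.86), and 1.09 on day 4 (1.01 to 1.17). It was 0.522 on day 5 (0.481 to 0.566), and 2.39 on day 7 (1.65 to 3.59). Thinned to 3000 UMIs, the levels on day 7 were 28.7 CPM in control (8 UMIs) and 145 CPM in heme (185 UMIs), a ratio of 5.07 (2.52 to 11.9).

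The control culture of day 7 differed from the other cultures of days 3 to 7. There 15.5% of the Ear6 UMIs lay in S100a8-high cells, which numbered 137, and 73.6% lay in cells with none of the 3 markers. Of its 193 UMIs in this culture, 99 lay in cells with an S100a8 share of 0.1% to 1%, where Ear6 was at 39.6 CPM, against 2.04 CPM in cells below 0.1%. The level of Ear6 rose with the S100a8 share in both libraries on day 5, from 1.61 CPM below 0.1% to 194 CPM at 10% or more in control, and from 1.78 to 117 CPM in heme.

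Within the cultures, the cells with 2 or more Ear6 UMIs differed from cells without any in several genes of neutrophil granules. On day 7 of heme, the 85 such cells had the granule genes Ltf (lactoferrin) at 6376 CPM against 581, Camp (cathelicidin) at 5284 against 497 and Ngp at 25079.7 against 2427. On day 4 they had the eosinophil granule gene Prg2 at 169 against 18.1 CPM in control and at 20.0 against 1.48 CPM in heme. On that day Ccr2, a monocyte chemokine receptor, was at 9.63 against 166 CPM in control. These cells held fewer UMIs than the rest, with a median of 6227.5 against 12886 on day 4 of control. The markers named here, and those for cells with Ear2 or Rnase2a below, were picked from the marker lists after their values were seen. How the other markers of those lists went is not given.

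**Figure D3:**
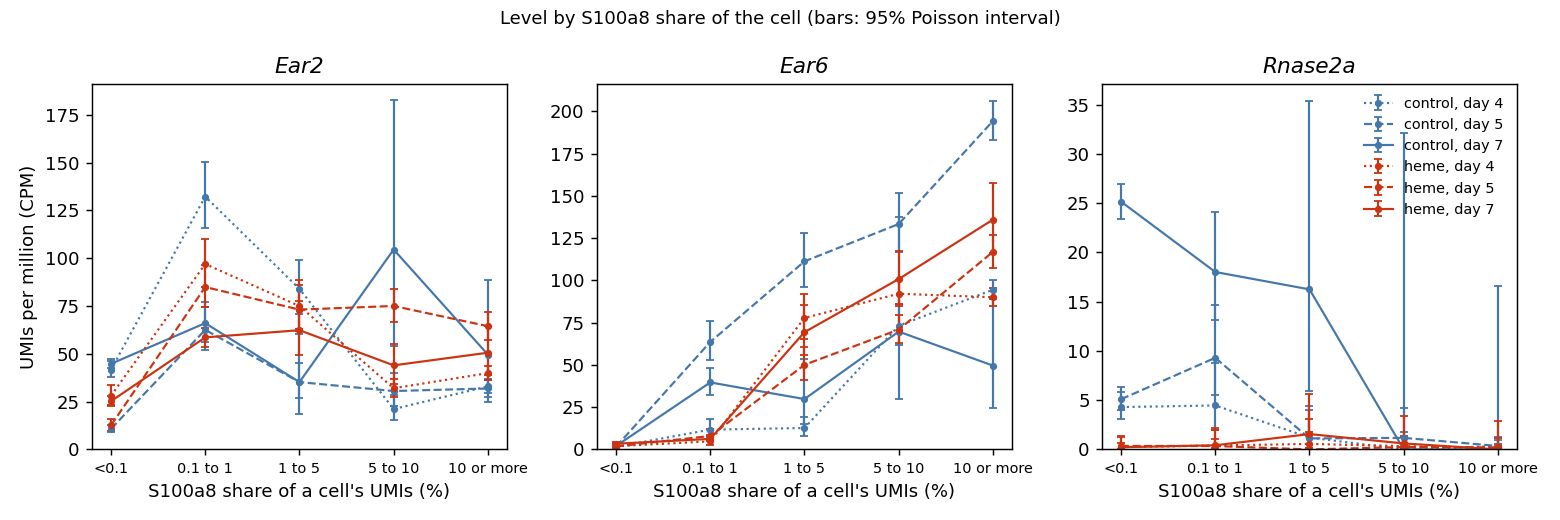
Level of Ear2, Ear6 and Rnase2a in CPM (y axis, a separate scale for each gene) by the share of a cell's UMIs from S100a8 (x axis, 5 ranges) on days 4, 5 and 7, with blue for control, red for heme and bars for 95% Poisson intervals. Ear6 climbs with S100a8 on day 5 in both libraries, to 194 CPM in control. On day 7 of control it is at 69.7 CPM at 5% to 10% and at 49.6 CPM at 10% or more. Ear2 is highest in the range 0.1% to 1% in several cultures, and Rnase2a is highest below 0.1% in control on day 7 (25.2 CPM).

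Ear2 was carried by a broader set of cells. On day 3 it was highest in cells with Mrc1 only, at 194 CPM in control and 181 CPM in heme, followed by cells with several of the 3 markers at 109 and 132 CPM and cells with Vcan only at 71.8 and 105 CPM, while S100a8-high cells were at 15.6 and 18.9 CPM. The 311 control cells of day 3 with 2 or more Ear2 UMIs had Mrc1 at 191 CPM against 34.5 in cells without Ear2, Ccr2 at 450 against 108 and the primary granule gene Elane (neutrophil elastase) at 259 against 3595. The S100a8-high share of Ear2 UMIs then rose from 16.3% on day 3 to 47.0% and 51.1% on days 4 and 5 of control and fell to 2.24% on day 7. In heme it rose from 20.5% to 70.1% and 70.7% and was still 19.5% on day 7.

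On day 5 Ear2 was higher in heme in each of the 5 classes that both cultures held. The S100a8-high cells had 70.1 CPM in heme and 32.3 CPM in control, a ratio of 2.17 (1.90 to 2.49). The ratio was 1.79 in cells with Vcan only, 1.97 in cells with Mrc1 only, 1.58 in cells with several markers and 1.99 in cells with none, with all lower bounds above 1. With cells thinned to 3000 UMIs and sorted again by 1 or more UMIs of a marker, the class with Vcan only turned the other way, at 24.1 CPM in heme (7 UMIs) and 36.2 CPM in control (14 UMIs), a ratio of 0.665 (0.227 to 1.76). The S100a8-high class also made up more of the culture, with 73.8% of the cells in heme and 56.9% in control. Before exposure, on day 3, the Ear2 ratio was 1.46 with Vcan only (1.22 to 1.74) and 1.22 in S100a8-high cells (1.03 to 1.44). It was 1.21 with several markers (1.09 to 1.34), 0.934 with Mrc1 only (0.778 to 1.12) and 1.00 with none (0.735 to 1.37).

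On day 4 the Ear2 ratio was 0.403 in cells with Mrc1 only (0.256 to 0.612) and 0.486 in cells with none (0.318 to 0.722). It was 1.53 with Vcan only (1.15 to 2.03), 1.10 in S100a8-high cells (0.986 to 1.22) and 0.969 with several markers (0.796 to 1.18). Thinned as above, cells with Mrc1 only were then at 116 CPM in heme (16 UMIs) and 135 CPM in control (34 UMIs). Cells with none were at 38.3 and 48.2 CPM and those with Vcan only at 80.8 and 51.7 CPM. On day 7 the classes again went different ways. Ear2 was lower in heme in cells with Mrc1 only, at 44.3 against 97.3 CPM (ratio 0.455, 0.393 to 0.527), and in cells with several markers, at 37.4 against 72.9 CPM (0.513, 0.432 to 0.610). It was higher in cells with Vcan only, at 61.3 against 44.4 CPM (1.38, 1.07 to 1.80), but thinned in the same way this turned to 38.3 CPM in heme (24 UMIs) and 42.7 CPM in control (15 UMIs), a ratio of 0.896 (0.451 to 1.84). It was at 1.01 in S100a8-high cells (0.708 to 1.48) and at 0.777 in cells with none of the markers (0.602 to 0.991). Cells with Mrc1 only made up 22.2% of the heme and 10.9% of the control culture, and cells with none made up 19.3% and 65.4%. The 201 heme cells of day 7 with 2 or more Ear2 UMIs had F13a1, a monocyte gene, at 105 against 15.9 CPM.

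Rnase2a was carried by the Vcan, Mrc1 and Arg1 range of cells. On day 3, cells with several of the 3 markers held 70.0% of its UMIs in control and 79.0% in heme, at 38.5 and 25.2 CPM, and S100a8-high cells held 4.33% in control. On day 7 of control the level was 86.4 CPM in cells with Arg1 only, 73.9 CPM in cells with several markers, 42.0 CPM in cells with Mrc1 only, 17.5 CPM in cells with Vcan only, 8.50 CPM in S100a8-high cells and 6.83 CPM in cells with none. The 173 control cells of day 7 with 2 or more Rnase2a UMIs had Arg1 at 1085 against 165 CPM in cells without it, Fn1 (fibronectin) at 1567 against 336 and F13a1 at 133 against 20.7. The dendritic cell genes Ccr7 and Ccl22 were at 13.6 against 192 and at 28.6 against 744 CPM.

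The Arg1 range itself was nearly absent from heme. Arg1 was at 270 CPM in control and 2.26 CPM in heme on day 7, and 1 heme cell had Arg1 only, against 199 control cells, so that class could not be compared. The classes that both libraries held differed as well. Cells with Mrc1 only had 2 Rnase2a UMIs in 447 heme cells and 208 in 296 control cells, a ratio of 0.0070 (0.0008 to 0.0255). Cells with several markers had 5 UMIs in 548 heme cells and 217 in 174 control cells, a ratio of 0.0069 (0.0022 to 0.0162). Cells with Vcan only had 0 UMIs in 158 heme cells and 41 in 134 control cells. On day 5 cells with Mrc1 only had 0 UMIs in 37 heme cells and 28 in 94 control cells. The lower Rnase2a level was thus seen within the Mrc1 range, which was larger in heme, with Mrc1 at 275 CPM against 60.6 CPM in control on day 7.

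**Figure D4:**
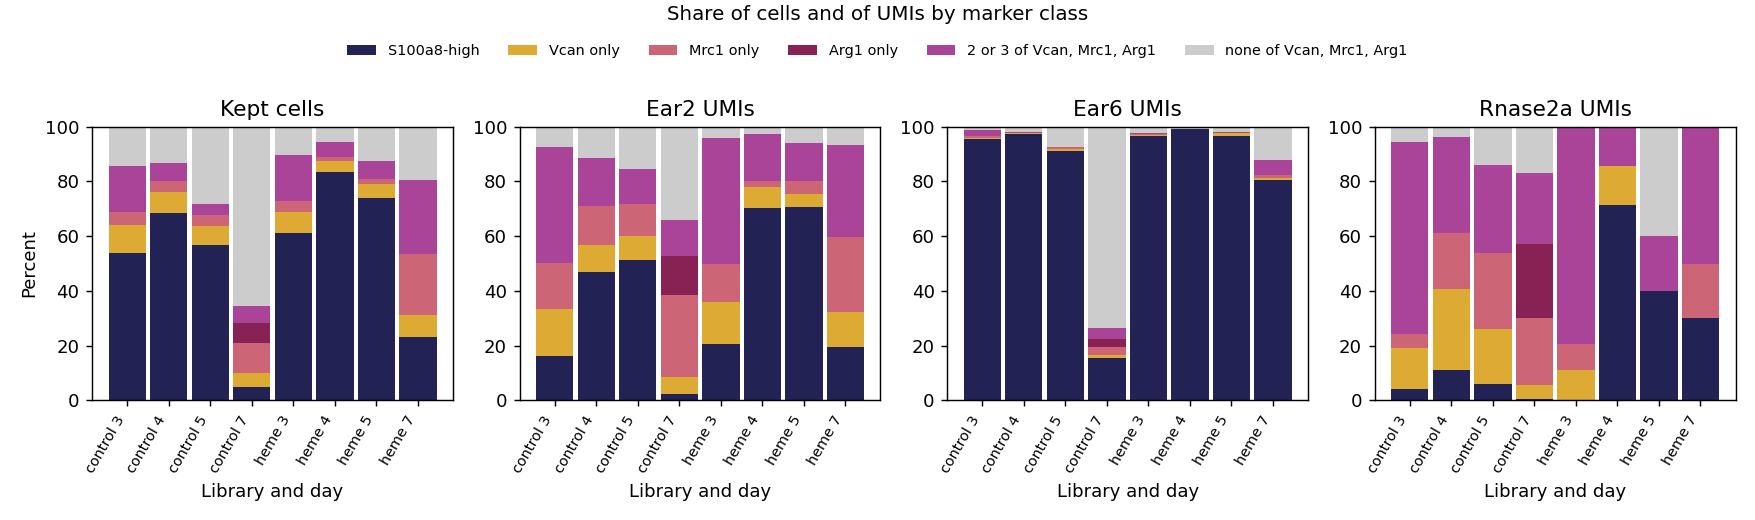
Share in percent (y axis) of kept cells and of the UMIs of Ear2, Ear6 and Rnase2a in each marker class (colours), for each library on days 3 to 7 (x axis). S100a8-high cells hold 80.4% of the Ear6 UMIs in heme on day 7 and 15.5% in control, Ear2 UMIs are spread over the classes, and the heme bars of Rnase2a on days 4, 5 and 7 rest on 7, 5 and 10 UMIs.

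**Figure D5:**
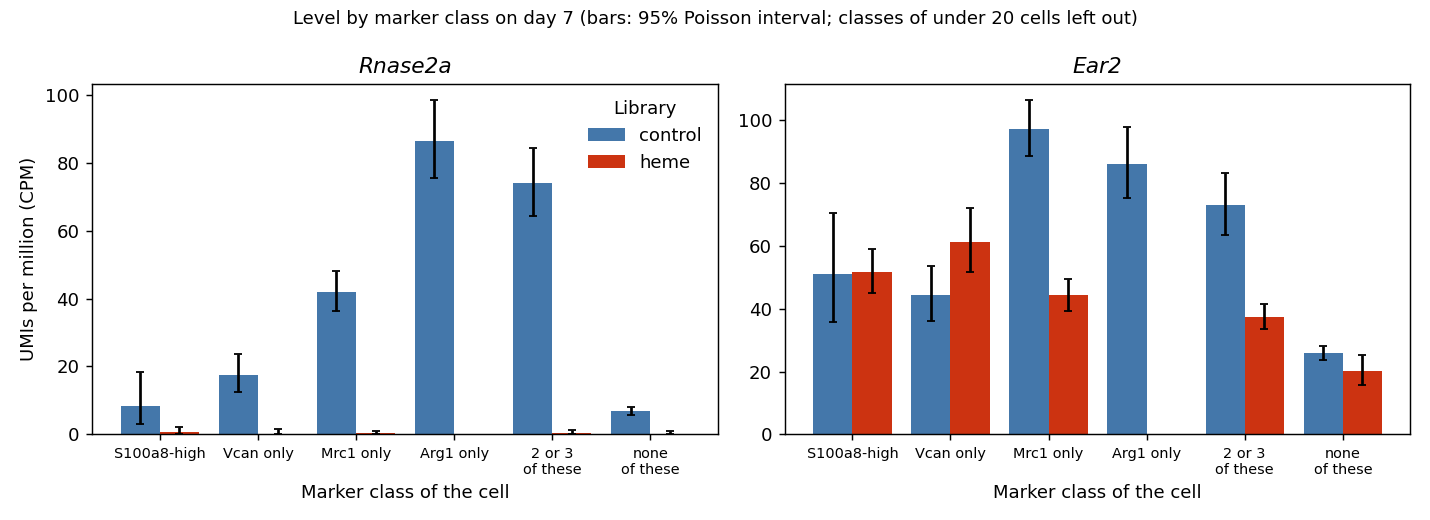
Level of Rnase2a and Ear2 in CPM (y axis, a separate scale for each gene) in each marker class (x axis) on day 7, with blue bars for control, red for heme and 95% Poisson intervals; the Arg1 class of heme, 1 cell, is left out. Rnase2a is at 0.72 CPM or less in every heme class shown, and Ear2 is lower in heme in cells with Mrc1 only and with several markers.

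Rnase2a shared cells with Ear2. Of the 335 control cells of day 7 with Rnase2a, 48.7% also had an Ear2 UMI, against 20.6% of all cells, and 4.48% had Ear6, against 4.09%. On day 3 the shares with Ear2 were 69.6% in control and 74.8% in heme, against 29.2% and 30.1% of all cells. Of the cells with Ear6 on day 3, 14.8% in control and 17.8% in heme had Ear2, below its share in all cells. These shares follow each cell's depth as well as the class it belonged to.

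Of the other RNase A family genes, Rnase6, an antimicrobial ribonuclease of monocytes and macrophages, was at 29.4, 28.6, 57.4 and 75.9 CPM on days 3, 4, 5 and 7 of control and at 22.1, 7.91, 11.7 and 15.5 CPM in heme. Of the 21 genes in the family list, 9, 8 and 7 had 20 or more UMIs on days 4, 5 and 7. Among these, only Rnase6 and Rnase2a were 2-fold or more lower in heme, on each of the days. Of all genes, 2.98%, 3.75% and 7.67% were lower on these days. The family list was chosen by name and its genes with 20 or more UMIs had a median log2 ratio of -0.37, 0.15 and 0.00 on days 4, 5 and 7, against 0.28, 0.25 and 0.28 for all genes. Rnase4, which shares its locus with angiogenin, was higher in heme on days 5 and 7, at 13.1 against 4.68 CPM on day 7. Rnh1, the inhibitor that binds ribonucleases of this family in the cytosol, was at 239.5 CPM in control and 239.6 CPM in heme on day 7. Ear10, Ear14 and Rnase2b, the closest other relatives, had 27 UMIs or fewer each in all kept cells.

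The eosinophil granule genes Prg2 (major basic protein) and Epx lay on opposite sides of control on days 4 and 5. Prg2 was the most counted gene of the 8 in the eosinophil list. It was at 29.4 against 3.32 CPM on day 4 and at 12.3 against 21.2 CPM on day 5, control before heme. Epx was at 8.87 against 0.40 and at 1.62 against 5.98 CPM. Of the 39 cells with eosinophil granule genes above, 8 were from control and 1 from heme on day 4. On day 5, 7 were from control and 2 from heme. Whether the Prg2 and Epx differences exceeded the sampling of so few cells was not tested. Of the list's genes with 20 or more UMIs, 0 of 6 were 2-fold or more higher in heme and 3 lower on day 4, 1 higher and 1 lower on day 5, and 1 of 4 higher and 2 lower on day 7. Of all genes, 9.64%, 9.27% and 14.9% were higher on these days, and 2.98%, 3.75% and 7.67% lower. The summed level of the list was 6.05 to 159 CPM, with Ccr3 and Il5ra, receptors that define eosinophils, at under 1 CPM in every culture. The part of such cells in the member levels is given by the 39 cells above.

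Other lists are given by their count on day 7 among genes with 20 or more UMIs. Of all genes so counted, 14.9% were 2-fold or more higher in heme on that day and 7.67% lower. In the neutrophil list, led by S100a8, S100a9, Ngp and Camp, 9 of 10 genes were 2-fold or more higher in heme and 0 lower. In the monocyte list (Ly6c2, Ccr2, Fcnb, Vcan) 3 of 6 were higher and 2 lower, in the macrophage list (Csf1r, Fn1, Mrc1, Adgre1) 3 of 10 and 5, and in the dendritic list (Ccl17, Ccl22, Il4i1, Ccr7) 0 of 8 and 7. In the list of GM-CSF-dependent alveolar macrophage genes (Chil3, Lpl, Fabp5, Cd9) 1 of 18 was higher and 5 lower, and in that of GM-CSF receptor signalling (Csf2rb, Pim1, Cish, Csf2ra) 1 of 10 and 2. The basophil and mast cell list (Prss34, Mcpt8, Cpa3, Gata2) had 4 of 7 higher and 1 lower, and the erythroid list (Car1, Hba-a1, Hbb-bt, Ermap) 3 of 6 and 0. The part of these shifts in cell make-up in the members' totals was not tested.

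The genes whose level over the 10 library and day pools was most like that of each member were found among 7848 genes by Pearson's r of log2(CPM + 10). For Ear2 they were Xbp1 (0.96), Acpp (0.96) and Rhog (0.96), for Ear6 Ltb (0.96), Slc39a2 (0.95) and Gja5 (0.95), and for Rnase2a Vegfa (0.93), Adra2a (0.92) and Klk1b9 (0.90). Vegfa, like Rnase2a, was highest in control on day 7, at 44.8 CPM against 7.46 CPM in heme. For Ear1, whose own range was 0.26 on this scale, the genes were the immunoglobulin segments Igkv15-103 (0.94), Iglv1 (0.93) and Iglc2 (0.93), which were highest on day 0. The pools of 1 library share its preparation and depth, and these correlations are a description.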

How the data were processed

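Single-cell 3′ RNA was measured in 2 libraries, control and heme, of 5 hashtagged cultures each. The values deposited by the authors are raw UMI counts, 1 row for each gene and barcode pair, from Cell Ranger. Its version is 5.0.0 in the headers and 4.0.0 in the submitters' processing notes, which name GRCm38.p6 as a build. Empty droplets had been removed, and the deposited hashtag calls came from HTODemux in Seurat 3.2.3. Doublets were treated through these calls, so doublets within 1 culture remain.

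Singlets with 500 to 5000 genes, under 15% mitochondrial and under 30% ribosomal UMIs were kept (the methods word these last 2 limits the other way round). UMIs were summed per library and day and divided by total UMIs. With 1 library per group no test was run. Levels have Poisson, shares Clopper-Pearson and ratios conditional binomial intervals (scipy 1.17.1). The interval code was tested on simulated data. The text names the 4 members, for each gene list its count past 2-fold and up to 4 genes of most UMIs, and the 3 genes most like each member. Other genes, such as carrier markers, were named after their values were seen. Members and lists were chosen with earlier results of these data known. Alternatives used edgeR 4.0.16 and DESeq2 1.42.0 factors, other filters and other limits. Sequences were aligned with Biopython 1.88. The design text and the labels differ on the exposure time of the day 5 culture, so culture days are used.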

Additional observations from a re-analysis of the deposited data

Results flagged for a closer look

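The ratio of heme to control lay on opposite sides of 1 on different days of exposure for 2 genes, with counting intervals that left out 1. For Ear2 it was 2.50 on day 5 and 0.884 on day 7. For Ear6 it was 1.41 on day 4, 0.785 on day 5 and 3.53 on day 7. Each ratio compares 1 culture with 1 culture, so the difference between days was not tested. The Ear6 ratio had been 1.90 on day 3, before heme was added. With 1 library per group no sample could be compared with others of its group.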

How the results depend on the processing

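Of 140 recomputed values of 47 results, 72 stayed within the interval of the reported value (counts of genes: within 1.5 times), 66 moved, and 2, the Ear2 ratios of cells with Vcan only, crossed to the other side of 1. The heme over control ratios of whole cultures moved as follows. Without the upper gene limit, Ear2 was at 1.10, 1.98 and 0.756 on days 4, 5 and 7, Ear6 at 1.04, 0.416 and 2.18, and Rnase2a at 0.0345 on day 7. With all Singlet barcodes, Ear2 was at 1.09, 1.99 and 0.781, Ear6 at 1.04, 0.414 and 2.11, and Rnase2a at 0.0356 on day 7. With TMM factors, Ear2 was at 0.800, 2.07 and 0.738 and Ear6 at 1.16, 0.651 and 2.95. With DESeq2 size factors, Ear2 was at 0.818, 2.11 and 0.738 and Ear6 at 1.19, 0.663 and 2.95. With each cell weighted equally, Ear1 was at 0.289 and Rnase2a at 0.185 on day 5, Ear2 at 1.98 on day 5, and Ear6 at 1.25, 0.572 and 2.23 on days 4, 5 and 7. The day 4 value of Ear2, whose interval included 1, lay below 1 with TMM and DESeq2 factors and above 1 without the gene limit. A pair of settings was added after the data were seen. Leaving out barcodes that both libraries held moved none of the 12 ratios, and leaving out the 39 cells with eosinophil granule genes moved 1 of 12, Ear1 on day 5, from 1.88 to 8.04. The causes of these moves were not tested.

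The share of UMIs in S100a8-high cells over days 4 to 7 was 26.3% for Ear2 and 89.0% for Ear6 in control, and 53.8% and 95.4% in heme. At an S100a8 limit of 0.5% these were 29.0%, 91.7%, 57.2% and 96.1%, at 2% they were 23.5%, 86.5%, 49.2% and 93.6%, and with all Singlet barcodes 23.5%, 87.8%, 39.2% and 92.1%. For Rnase2a the control share went from 1.81% to 1.00% at 2%, and the heme share, from 22 UMIs, from 45.5% to 12.8% with all Singlet barcodes. Thinned to 3000 UMIs, the day 7 level in control was 115 CPM for Ear2 in cells with Mrc1 only, 28.7 CPM for Ear6 in S100a8-high cells and 114 CPM for Rnase2a in cells with Arg1 only, and that of Ear6 in S100a8-high heme cells was 145 CPM. The ratios of heme to control in a class, thinned, turned for Ear2 in cells with Vcan only to 0.665 on day 5 and 0.896 on day 7. For Ear2 they moved on day 5 to 3.37 in cells with Mrc1 only and 2.36 in cells with several markers, and on day 7 to 0.402 in cells with several markers. For Ear6 in S100a8-high cells they moved to 0.608 on day 5 and 5.07 on day 7, and for Rnase2a in cells with several markers on day 7 to 0 (0 UMIs in heme and 26 in control).

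The number of genes 2-fold or more higher in heme was 1206, 1161 and 1911 on days 4, 5 and 7, and 373, 470 and 987 were lower. With 100 or more UMIs, 676 and 665 were higher on days 4 and 5, and 289 and 648 were lower on days 5 and 7. With DESeq2 size factors, 663, 675 and 1266 were higher and, on days 4 and 5, 764 and 788 lower. No paired analysis was possible because each group is 1 library and the replicate number only names it. With 1 culture per day and group, intervals cover counting error only, and levels of a few UMIs cannot be told from free RNA. Examples are Rnase2a in the exposed heme cultures and Ear1 outside the 39 cells with eosinophil granule genes.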
